A study of Mus musculus with 12 samples.

Results

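NF-κB is a family of dimeric transcription factors, and this account follows 10 of its genes in primary mouse oligodendrocyte precursor cells (OPCs): the subunits Nfkb1, Nfkb2, Rela and Relb, the inhibitor (IκB) family members Nfkbia, Nfkbie, Nfkbiz and Bcl3, and the feedback genes Tnfaip3 and Birc3. The genes were taken by symbol and make up 10 of the 55536 genes in the data. All 10 passed the filter on low counts, which kept 18995 genes.

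Bulk RNA-seq was performed on 12 libraries, 3 in each of 4 groups, to ask how OPCs respond to IFN-γ when the histone methyltransferase EZH2 is inhibited. Ctr cells received neither agent. EZH2i cells received the small-molecule EZH2 inhibitor EPZ011989 at 1.5 μM over 4 days, with fresh inhibitor each 48 h. IFN-γ cells received this cytokine at 100 ng/ml over 6 h, and the cells of the group named IFN-γ with EZH2i received the 4 days of EZH2i and then both agents over the same 6 h. In every group the cells came from brains of pups between postnatal days 4 and 6, pooled over several animals, and were grown in proliferation medium with PDGFaa and bFGF. The labels name Sox10GFP+ OPCs, in which the Sox10 promoter drives Cre and a Cre-dependent reporter marks the whole oligodendrocyte lineage, while the protocol allows either this sort or a magnetic selection on CD140a. The labels also carry the name of a disease model (EAE) for all 12 samples, although the cells are cultures of pup OPCs. The replicates of a group came from different litters, and the labels do not say whether equal replicate numbers across groups mean a shared litter.

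Totals ranged between 17403893 and 66546052 estimated counts per library, with Ctr replicate 2 the shallowest, so a gene with a handful of counts is measured least precisely there. Irf1, which is induced by IFN-γ signaling, went from 12 CPM (counts scaled to a common library size, TMM-normalized) on average in Ctr to 951 CPM in IFN-γ. Ezh2 mRNA averaged 49.4 CPM in Ctr and 39.6 CPM in EZH2i (edgeR Benjamini-Hochberg-adjusted p = 0.806), which is no check of an inhibitor of the enzyme. Summed over 8 OPC markers, the level was 8800 to 8970 CPM in Ctr, 7290 to 7910 in EZH2i, 5650 to 7700 in IFN-γ and 4660 to 5690 in IFN-γ with EZH2i. By edgeR, 2 of the 8 were called lower with IFN-γ versus Ctr and 3 in IFN-γ with EZH2i versus EZH2i. Over all tested genes 2.1% and 2.17% were called lower in these comparisons. The 9 microglia and macrophage markers, whose cells have high NF-κB activity, summed to between 0.734 and 1.74 CPM over all libraries, and C1qa had no count in any library. The 5 neuron markers summed to between 34.8 and 48.0 CPM in Ctr and between 686 and 1280 CPM in IFN-γ, mostly through Tubb3, which went from 26.7 to 916 CPM on average. Of these 5, 3 were called higher in both IFN-γ comparisons, beside 6.65% and 5.9% of all tested genes. In IFN-γ with EZH2i versus IFN-γ, 1 of the 5 was called higher, beside 0.353% of all tested genes called in either direction. The 4 T cell markers summed to 0.0848 to 0.226 CPM in Ctr and 0.0715 to 0.219 CPM in EZH2i. They summed to 2.82 to 3.36 CPM in IFN-γ, with Lck at 2.80 to 3.33 CPM, and to 2.44 to 2.93 CPM under both agents. Only 1 of the 4 passed the filter on low counts, and it was called higher in both IFN-γ comparisons. Cd3g had no count in any library. The 5 astrocyte markers summed to 450 to 941 CPM in Ctr, 627 to 1420 in EZH2i, 405 to 1100 in IFN-γ and 625 to 1460 in IFN-γ with EZH2i, and the 5 mature oligodendrocyte markers to 1470 to 1840, 808 to 1290, 1390 to 1610 and 781 to 1270 CPM in the same order, with 0 of either list called by edgeR in any of the 4 comparisons. The 5 endothelial markers summed to between 12.9 and 40 CPM and the 5 fibroblast and pericyte markers to between 0.282 and 2.72 CPM over all libraries, and of the latter Lum was called higher in both IFN-γ comparisons, averaging 0.0826 CPM in Ctr and 1.35 CPM in IFN-γ. The part of these marker differences in the results below was not tested, and in bulk RNA a change in the number of cells of a type and a change in RNA per cell cannot be told apart.

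In resting cells NF-κB dimers are held in the cytoplasm by IκB proteins. Receptors for TNF, interleukins and microbial products activate the IκB kinase complex, which marks IκB for degradation and frees the dimers, and a slower noncanonical branch processes the Nfkb2 precursor to pair with Relb. The freed factors switch on their own inhibitors and ubiquitin-modifying enzymes, so that genes such as Nfkbia and Tnfaip3 are widely used as readouts of the pathway. IFN-γ signals mainly through a separate route that begins with JAK kinases.

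The bases before the start site are shown for the 3 genes that rose with IFN-γ in both of its comparisons, and for Nfkbia, the standard NF-κB feedback gene, as a contrast. The sequences are from RefSeq on GRCm38.p6, read 5′ to 3′ on the strand of the gene. All 4 genes lie on the minus strand. The windows end at the base before the RefSeq start. Matches to the kappaB motif are in capitals.
Tnfaip3, chr10:19015411-19015547: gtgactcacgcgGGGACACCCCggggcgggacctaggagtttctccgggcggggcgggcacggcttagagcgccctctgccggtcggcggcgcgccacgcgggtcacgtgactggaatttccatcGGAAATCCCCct
Bcl3, chr7:19822756-19823005: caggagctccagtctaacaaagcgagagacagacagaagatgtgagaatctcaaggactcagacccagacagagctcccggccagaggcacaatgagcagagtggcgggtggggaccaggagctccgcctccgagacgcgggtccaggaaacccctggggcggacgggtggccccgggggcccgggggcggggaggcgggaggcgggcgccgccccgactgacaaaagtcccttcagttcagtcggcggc
Birc3, chr9:7873171-7873420: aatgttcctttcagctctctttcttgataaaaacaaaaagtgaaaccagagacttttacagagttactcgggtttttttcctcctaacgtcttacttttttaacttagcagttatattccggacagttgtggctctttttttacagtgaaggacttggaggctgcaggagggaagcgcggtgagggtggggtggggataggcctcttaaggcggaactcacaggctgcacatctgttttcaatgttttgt
Nfkbia, chr12:55492648-55492897: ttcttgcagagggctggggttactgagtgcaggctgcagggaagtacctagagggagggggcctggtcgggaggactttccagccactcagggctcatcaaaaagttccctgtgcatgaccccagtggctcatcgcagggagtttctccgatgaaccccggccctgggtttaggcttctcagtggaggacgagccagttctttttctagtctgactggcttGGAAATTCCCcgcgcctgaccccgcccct

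The search covered both strands of 250 bases before each start, for the kappaB motif, for the GAS motif of IFN-γ-responsive promoters (TTCNNNGAA) and for the interferon motif ISRE, and 7 of the 10 members had an entry: Bcl3, Birc3, Tnfaip3, Nfkbia, Nfkbie, Rela and Nfkb2. Before the upstream start of Tnfaip3, the kappaB motif occurred at 125 to 116 and at 12 to 3 bases from the start, the first of these on both strands. For Tnfaip3 only the 137 bases nearest the start are printed, because upstream bases of the window lie in annotated exons. None of the 3 motifs was found before the other start of Tnfaip3 (chr10:19011964-19012213). Nfkbia had a kappaB match 29 to 20 bases before its start, and Nfkbie had one at 106 to 97. Nfkb2 had a kappaB match before each of its 3 starts, and a GAS match 148 to 140 bases before one of them. Among 32851 windows of all genes, 7.25% held the kappaB motif, 7.02% held GAS and 2.98% held ISRE. No match to any of the 3 motifs was found in the windows of Bcl3, Birc3 and Rela, which describes these letters in these windows only. The matches are a description and no binding was measured here.

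Levels of different genes were compared within a group as TPM, which accounts for transcript length. In Ctr the order was Rela at 17.7 ± 3.42 TPM (SD, n = 3), Nfkbia at 15.9 ± 2.46, Nfkb1 at 9.39 ± 1.51, Nfkbiz at 4.01 ± 0.94, Relb at 2.60 ± 0.633, Nfkbie at 2.07 ± 0.158 and Nfkb2 at 1.41 ± 0.298. Tnfaip3 at 0.422 ± 0.074 TPM, Birc3 at 0.109 ± 0.132 and Bcl3 at 0.0188 ± 0.0258 were the lowest of the 10. The libraries of neighbors in this order overlapped for Rela and Nfkbia, for Nfkbiz, Relb and Nfkbie, and for Birc3 and Bcl3, and did not overlap elsewhere. With IFN-γ, Tnfaip3 stood at 6.41 ± 1.28 TPM, which overlapped with Nfkbiz at 5.24 ± 0.484, and Bcl3 stood at 2.36 ± 1.47 TPM, which overlapped with Nfkbie and Relb. Nfkbia, Rela and Nfkb1 remained the 3 highest in all 12 libraries. Part of the TPM of Nfkbia and Rela came from short retained-intron transcripts, Nfkbia-202 with 45.9% and Rela-203 with 39.7% of the gene's TPM in Ctr, so the place of these 2 genes rests on how Salmon divided the reads.

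**Figure D1:**
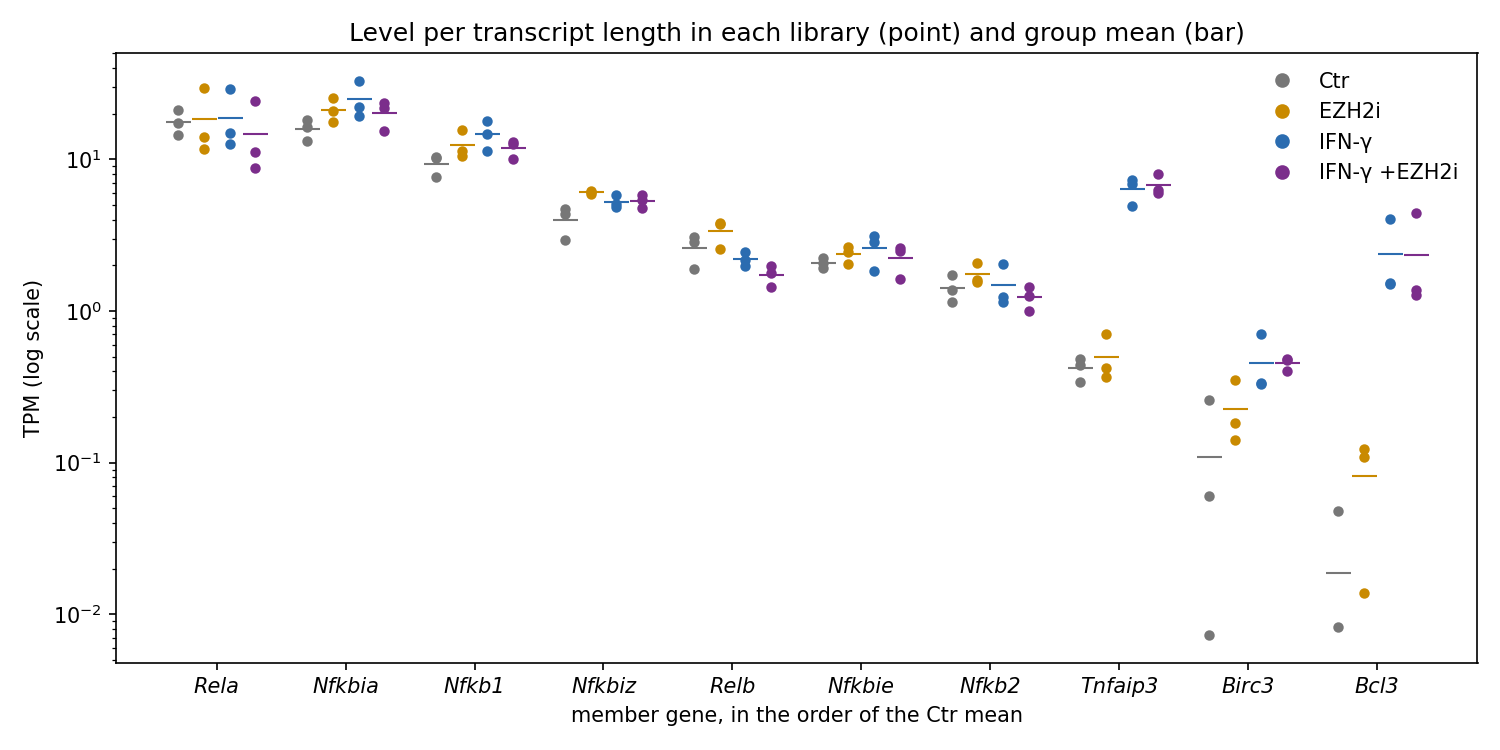
TPM (log axis) of each of the 10 genes in each library (points) with the group mean (bars), colored by group and ordered by the Ctr mean. Tnfaip3 and Bcl3 are at the low end in Ctr and EZH2i and move up among Nfkbiz, Nfkbie and Relb with IFN-γ. Bcl3 in Ctr replicate 2 had no count and is not drawn.

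IFN-γ alone was first compared with Ctr. Of the 10 genes, 3 changed and all 3 were higher with IFN-γ: Tnfaip3, Bcl3 and Birc3. Bcl3 and Birc3 were so low in Ctr that they passed the filter on low counts through libraries with IFN-γ. For both, a call against Ctr could in practice only be upward. The count and the median of the 10 genes include both and are a description. Over all tested genes, 8.75% were called in this comparison and 6.65% were called higher and 2.1% lower. The 4 subunits and Nfkbia, Nfkbie and Nfkbiz were not called. In an alternative fit with the replicate number as a block, Nfkb1, Relb and Nfkbia were called too, though a pairing with Ctr was not established. The median log2 fold change over the 10 genes was 0.24, beside 0.00 over all tested genes. The groups did not overlap for 5 genes that were higher with IFN-γ (Tnfaip3, Bcl3, Birc3, Nfkb1 and Nfkbia) and for 1 that was lower (Relb), while 13.5% and 9.52% of all tested genes had such separation upward and downward.

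Tnfaip3 encodes a ubiquitin-editing enzyme that shuts off signaling from TNF and Toll-like receptors to NF-κB. On GRCm38, the build of all positions given here, the gene (ENSMUSG00000019850) lies on chromosome 10 at 19000910 to 19015657. It was measured at 2.66, 1.81 and 2.04 CPM in Ctr replicates 1, 2 and 3 and at 39.4, 32.7 and 26.9 CPM in IFN-γ. Every IFN-γ library was far above every Ctr library. The log2 fold change was 3.92 (SE 0.22, edgeR Benjamini-Hochberg-adjusted p = 1.24e-07). Most of the TPM of the gene with IFN-γ was assigned to the coding transcript Tnfaip3-201, with 4.77 of 6.41 TPM, or 74.4%.

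Bcl3 encodes an atypical IκB protein of the nucleus that can act as a coactivator of NF-κB dimers. The gene (ENSMUSG00000053175) lies on chromosome 7 at 19808462 to 19822770. Ctr libraries held 2, 0 and 1 counts, or 0.0709, 0 and 0.0170 CPM, while IFN-γ libraries held 235, 104 and 206 counts, or 7.87, 2.77 and 3.18 CPM. The gene was close to undetected without IFN-γ and replicate 1 was the highest of the IFN-γ libraries. The ratio of the summed counts, scaled for library size, was 144, with an exact 95% interval of 49 to 701 that covers counting error only (edgeR Benjamini-Hochberg-adjusted p = 4.21e-04). Antisense genes (Gm16174 and Gm16175) overlap Bcl3, and the strand setting of the quantification is not given in the sources used here, so reads of these genes may not have been kept apart. Of the TPM of Bcl3 with IFN-γ, 85.0% was assigned to the coding transcript Bcl3-201.

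Birc3 encodes an inhibitor-of-apoptosis protein, a ubiquitin ligase of TNF receptor complexes. The gene (ENSMUSG00000032000) lies on chromosome 9 at 7848699 to 7873186. It was low throughout, at 0.0355, 0.226 and 0.187 CPM in Ctr (1, 4 and 11 counts) and 0.737, 0.879 and 0.833 CPM in IFN-γ (22, 33 and 54 counts). The groups were well apart although the counts were few. The log2 fold change was 2.44 (SE 0.50, edgeR Benjamini-Hochberg-adjusted p = 0.00869). Its neighbor and paralog Birc2 also rose, from 26.0 ± 2.17 to 48.9 ± 6.17 CPM (SD, n = 3; adjusted p = 0.00256, same test by edgeR), and reads shared by the pair could have been divided between them.

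Among the genes not called, Nfkbia (the IκB that is resynthesized after activation) stood at 24.7, 22.3 and 23.1 CPM in Ctr and at 28.6, 36.1 and 28.3 CPM in IFN-γ. The IFN-γ libraries were all above the Ctr libraries by a modest margin. The log2 difference was 0.41 (SE 0.15, edgeR Benjamini-Hochberg-adjusted p = 0.159). Nfkb1, the precursor of the p50 subunit, stood at 40.1, 39.6 and 36.3 CPM in Ctr and 56.5, 44.2 and 41.1 CPM in IFN-γ (log2 difference 0.29, SE 0.13, edgeR adjusted p = 0.264). These groups did not overlap either, but IFN-γ replicate 3 was close to the highest Ctr library. Relb, the partner of processed Nfkb2, stood at 6.52, 7.23 and 7.99 CPM in Ctr and 5.29, 5.62 and 5.52 CPM in IFN-γ (log2 difference -0.40, SE 0.17, edgeR adjusted p = 0.213). Here all of the IFN-γ libraries were below Ctr. Rela, the main activating subunit, averaged 44.4 CPM in Ctr and 39.9 CPM in IFN-γ, Nfkb2 6.58 and 5.56 CPM, Nfkbie 7.32 and 7.87 CPM and Nfkbiz, a nuclear IκB, 20.6 and 23.6 CPM. In these 4 genes the groups overlapped (edgeR adjusted p between 0.428 and 0.882).

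**Figure D2:**
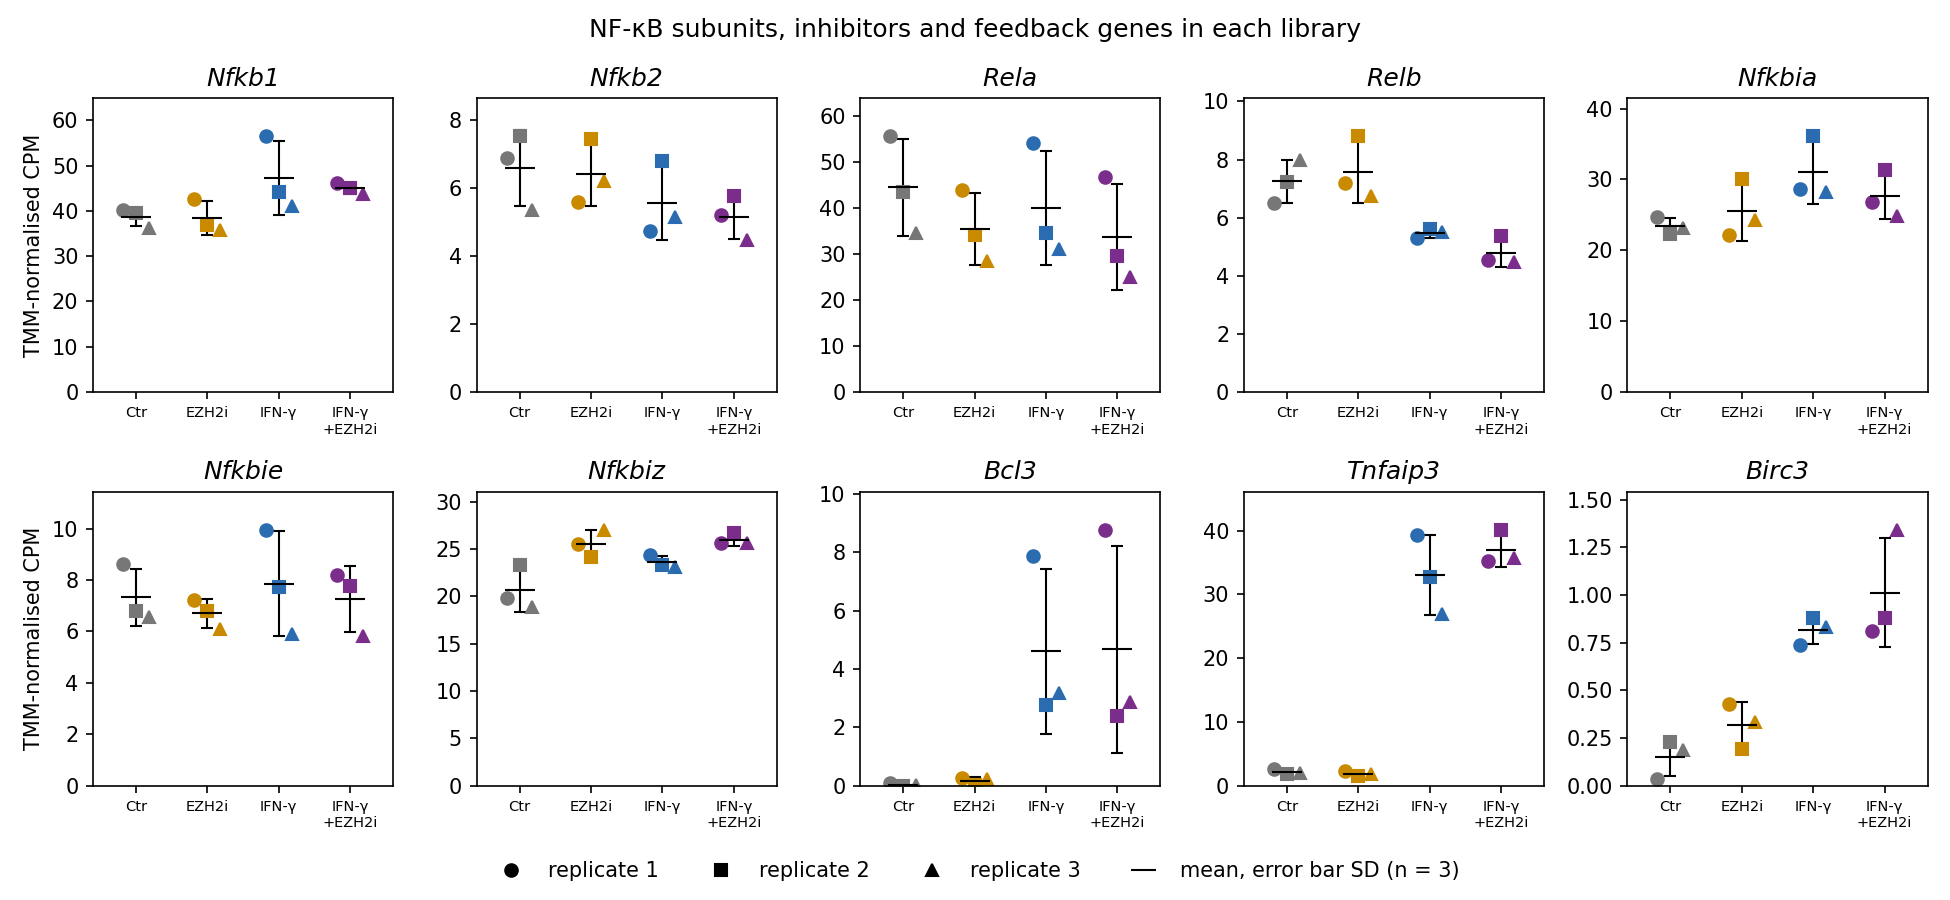
TMM-normalized CPM of each gene in each library (symbols give the replicate number) with the group mean and SD, on linear axes that start at 0. Tnfaip3, Bcl3 and Birc3 separate the groups with IFN-γ from those without it. Relb is lower with IFN-γ without overlap in both comparisons, and Rela varies more between replicates than between groups.

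The effect of IFN-γ was then measured in EZH2i-treated cells. In IFN-γ with EZH2i versus EZH2i, 4 of the 10 genes changed: Tnfaip3, Bcl3 and Birc3 were higher and Relb was lower. Here too Bcl3 and Birc3 had passed the filter through libraries with IFN-γ, which favored upward calls for both. Over all tested genes 8.07% were called, 5.9% higher and 2.17% lower. The EZH2i libraries had 2.25, 1.48 and 1.88 CPM of Tnfaip3 and those with both agents 35.3, 40.1 and 35.7 CPM, a log2 fold change of 4.31 (SE 0.22, edgeR Benjamini-Hochberg-adjusted p = 5.41e-08). Again the groups were far apart. In IFN-γ with EZH2i, 56.0% of the TPM of Tnfaip3 was assigned to Tnfaip3-201 and 24.2% to Tnfaip3-202, another coding transcript. With IFN-γ alone Tnfaip3-202 took 5.9%. This split, which Salmon inferred for transcripts that share most of their sequence, was picked out after its values were seen and was not tested.

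Bcl3 had 0.250, 0.0274 and 0.228 CPM in EZH2i (7, 1 and 15 counts) and 8.76, 2.40 and 2.86 CPM in IFN-γ with EZH2i (205, 79 and 115 counts). Replicate 1 was again the highest. The scaled count ratio was 23.4 (exact 95% interval 15.4 to 37.4; edgeR Benjamini-Hochberg-adjusted p = 0.00141). The fitted log2 fold change was 4.74, and 3.90 without replicate 1 of IFN-γ with EZH2i.

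Birc3 had 0.429, 0.192 and 0.334 CPM in EZH2i and 0.812, 0.881 and 1.34 CPM in IFN-γ with EZH2i. The groups did not overlap, and the log2 fold change was 1.68 (SE 0.45, edgeR Benjamini-Hochberg-adjusted p = 0.0405). Relb (ENSMUSG00000002983, chromosome 7 at 19606217 to 19629438) had 7.18, 8.80 and 6.74 CPM in EZH2i and 4.53, 5.35 and 4.47 CPM in IFN-γ with EZH2i. All of the libraries with both agents were below those with EZH2i alone, with a log2 fold change of -0.66 (SE 0.17, edgeR Benjamini-Hochberg-adjusted p = 0.0320). Both of these calls were near the threshold. Birc3 passed in 7 of 19 alternative settings (edgeR or DESeq2 adjusted p from 0.00408 to 0.165) and Relb in 10 of 19 (0.00256 to 0.162). Leaving out EZH2i replicate 2 alone gave adjusted p = 0.164 for Birc3 and 0.162 for Relb by edgeR. When the replicate number was added as a block, the count of called genes went from 1533 to 3661. The 4 genes stayed called, Relb at adjusted p = 0.00413 and Birc3 at 0.0129 by edgeR. The data support a pairing of the libraries compared here. However, the fit blocked the Ctr libraries by number as well, for which a pairing was not established, and no block fit without Ctr was run.

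The other 6 genes were not called in this comparison. Nfkb1 averaged 38.4 CPM in EZH2i and 45.0 CPM in IFN-γ with EZH2i without overlap (log2 difference 0.23, SE 0.13, edgeR adjusted p = 0.454). Nfkbia averaged 25.5 and 27.7 CPM, Nfkbiz 25.6 and 26.0, Nfkbie 6.70 and 7.27, Rela 35.4 and 33.7 and Nfkb2 6.40 and 5.15, with overlapping groups in each (edgeR adjusted p between 0.551 and 0.972). In all, the groups of this comparison did not overlap for 4 higher genes and 1 lower gene, beside 11.8% and 9.66% of all tested genes.

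**Figure D3:**
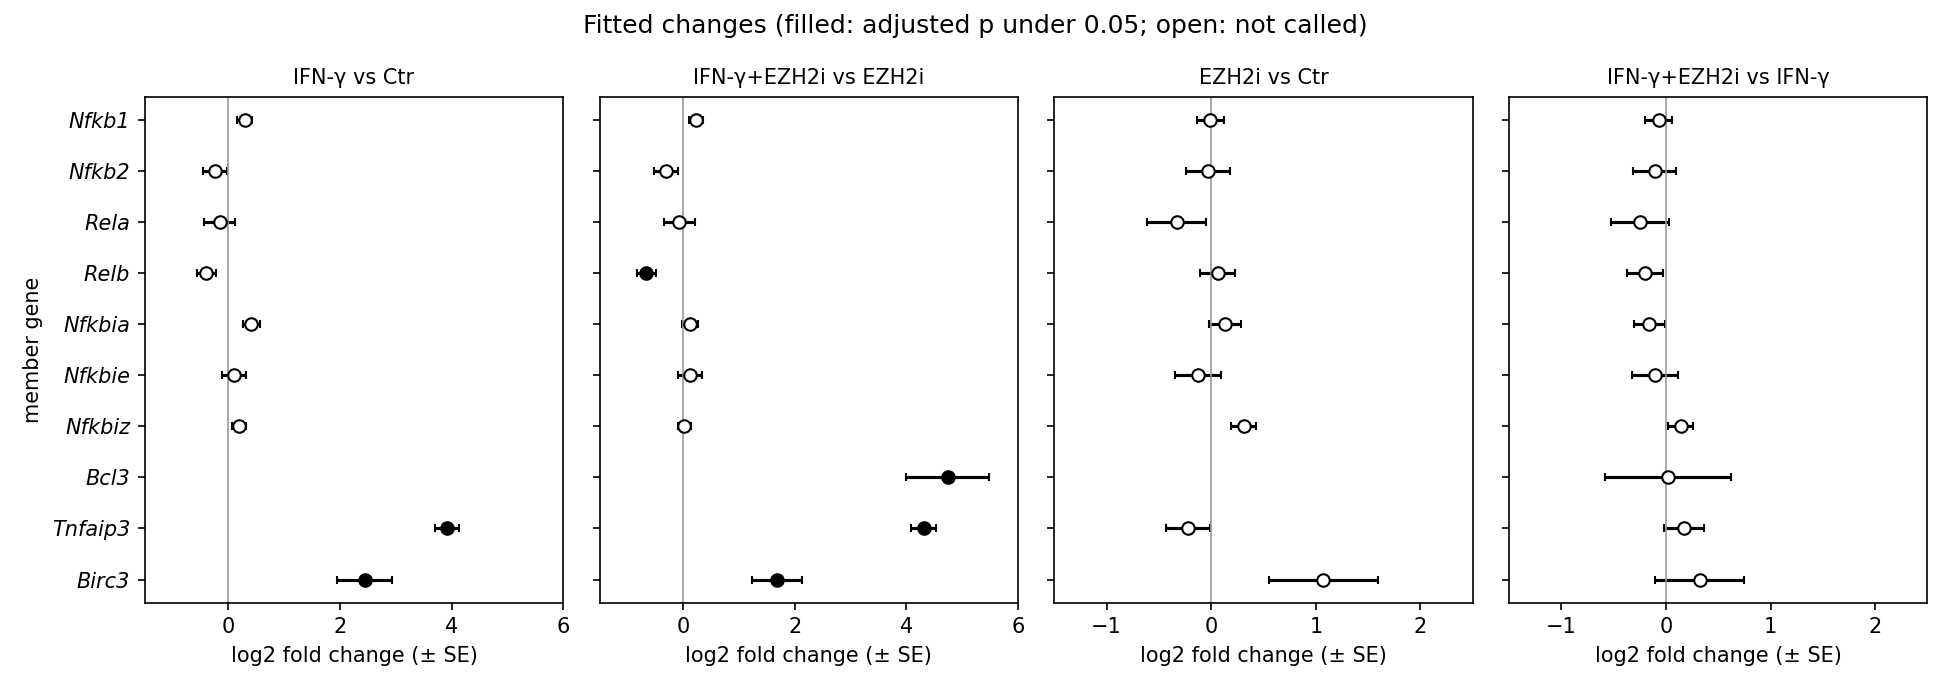
Log2 fold changes (± SE) of the 10 genes in 4 comparisons, from the edgeR fit of 12 libraries, filled where the adjusted p was under 0.05. The calls are confined to the 2 panels of IFN-γ. Bcl3 is left out of the panels against Ctr, where it had 3 counts in all and a fitted fold has no firm size.

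EZH2i was compared with Ctr to measure what the inhibitor does to these genes before any cytokine. None of the 10 genes was called by edgeR, 1 (Nfkbiz) had an unadjusted p under 0.05, beside 7.04% of all tested genes, and DESeq2 called 0 with 2 at an unadjusted p under 0.05. Over all tested genes 0.405% were called by edgeR, all of them higher. Nfkbiz had 19.8, 23.3 and 18.9 CPM in Ctr and 25.5, 24.2 and 27.0 CPM in EZH2i. The groups were just apart, and 7.37% of all tested genes were separated upward in this way. The log2 difference was 0.31 (SE 0.12, edgeR unadjusted p = 0.0205 and edgeR Benjamini-Hochberg-adjusted p = 0.507). Of the low genes, Bcl3 had 3 counts in all in Ctr and 23 in EZH2i, a scaled ratio of 6.17 (exact 95% interval 1.86 to 32.1), and Birc3 had 16 and 41 counts, a ratio of 2.06 (1.13 to 3.94). The fitted log2 difference of Bcl3 was 2.43 and ranged from 1.92 without Ctr replicate 3 to 3.46 without Ctr replicate 1, and that of Birc3 was 1.07 and ranged from 0.66 without Ctr replicate 1 to 1.42 without Ctr replicate 3. The intervals of the ratios cover counting error only, the libraries overlapped in both genes, and edgeR gave adjusted p = 0.767 and 0.777. Tnfaip3 averaged 2.17 CPM in Ctr and 1.87 CPM in EZH2i with overlap (log2 difference -0.22, SE 0.21, edgeR adjusted p = 0.967). The subunits, Nfkbia and Nfkbie also overlapped, with log2 differences from -0.33 (Rela, SE 0.28) to 0.13 (Nfkbia, SE 0.15).

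In the presence of IFN-γ, EZH2i again called none of the 10 genes in edgeR, with 0 at an unadjusted p under 0.05, and DESeq2 called 0 with 0 at that level. Over all tested genes 0.353% were called. With the replicate number as a block, which the data support here too, the count over all genes went from 67 to 748 and that of the 10 genes stayed at 0. Tnfaip3 averaged 33.0 CPM in IFN-γ libraries and 37.0 CPM under both agents, with overlapping libraries (log2 difference 0.17, SE 0.19, edgeR adjusted p = 0.999). Bcl3 averaged 4.61 and 4.67 CPM and Birc3 0.816 and 1.01 CPM, also with overlap (log2 differences 0.02, SE 0.60, and 0.32, SE 0.43). Nfkbiz had 24.4, 23.3 and 23.1 CPM in IFN-γ libraries and 25.6, 26.7 and 25.6 CPM under both agents, apart by a small margin (log2 difference 0.14, SE 0.12, edgeR adjusted p = 0.999), as were 6.08% of all tested genes in this direction.

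Whether the response to IFN-γ differed between cells with and without EZH2i was tested as an interaction. Over all tested genes edgeR called 0 (0% of 18995), with 127 (0.669%) at an unadjusted p under 0.05, and DESeq2 called 0 with 218. Of the 10 genes, 0 were called, and 0 in edgeR and 1 in DESeq2 had an unadjusted p under 0.05. The interaction was 0.39 (SE 0.28, unadjusted p = 0.191 from the edgeR fit across all genes) for Tnfaip3 and -0.26 (SE 0.24, unadjusted p = 0.305) for Relb on the log2 scale. So Relb passing in one IFN-γ comparison and not in the other does not show a different response. Among the 10 genes the interaction of Bcl3 was the largest in size (-2.41, SE 1.33, edgeR unadjusted p = 0.0941), and it rests on the few counts in Ctr and EZH2i. With the replicate number as a block, which was not established as a pairing with Ctr, edgeR again called 0 genes. That fit had 545 genes at an unadjusted p under 0.05, 1 of the 10 among them, and Bcl3 was at -2.65 (SE 0.76). A p that misses the threshold does not show equal responses.

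Among replicates, 4 of the 10 genes (Nfkb1, Rela, Nfkbie and Bcl3) were highest in replicate 1 of all 4 groups, beside 13.6% of all tested genes. For Bcl3 this rests on few counts in Ctr (2, 0 and 1) and EZH2i (7, 1 and 15, or 0.250, 0.0274 and 0.228 CPM). Rela had 55.5, 43.8, 54.1 and 46.6 CPM in replicate 1 of the 4 groups (in the order Ctr, EZH2i, IFN-γ, both agents) and 34.4, 28.4, 31.0 and 24.9 CPM in replicate 3. Its spread between replicates of a group thus exceeded its differences between groups. Nfkb1 and Nfkbie, like Rela, were lowest in replicate 3 of all 4 groups. With replicate 1 of every group left out, Tnfaip3, Bcl3 and Birc3 were still called in both IFN-γ comparisons and Relb was not (edgeR adjusted p = 0.119).

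**Figure D4:**
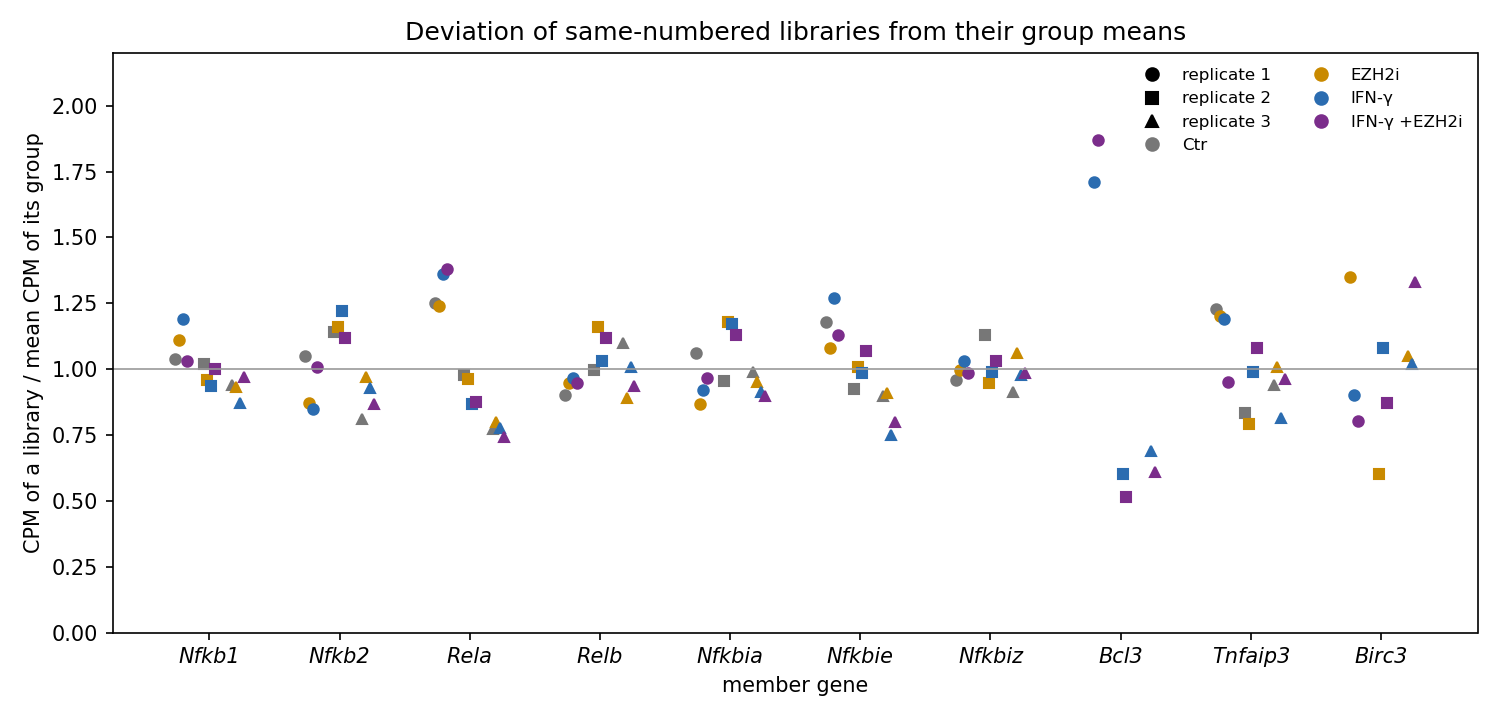
CPM of each library divided by the mean of its group, for each gene, with symbols for the replicate number and colors for the group. Rela is highest in replicate 1 and lowest in replicate 3 in all 4 groups and Bcl3 is high in replicate 1. Bcl3 in Ctr and EZH2i and Birc3 in Ctr are left out for their low counts.

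The rest of the pathway was described by lists of genes, to be read beside the 6.65% higher and 2.1% lower calls over all tested genes with IFN-γ versus Ctr and the 5.9% and 2.17% in EZH2i-treated cells. Of 8 other subunits and inhibitors, 1 was called higher in either IFN-γ comparison and 0 lower: Nkrf, a repressor of NF-κB promoters, which went from 26.1 ± 2.87 to 48.3 ± 3.37 CPM (SD, n = 3; log2 0.88, SE 0.11, edgeR adjusted p = 2.62e-04). Rel, the subunit of activated lymphocytes, averaged 7.81 CPM in Ctr and 7.16 CPM in IFN-γ, and the inhibitor Nfkbib 27.0 and 29.6 CPM, neither of them called. Of 16 kinases, 4 were called higher and 0 lower in both IFN-γ comparisons. They were Ripk2, which transmits signals from intracellular sensors (4.92 ± 1.24 to 17.2 ± 2.71 CPM), Map3k14, the kinase of the noncanonical branch (8.31 ± 1.25 to 20.8 ± 1.62 CPM), Ripk1 (25.1 ± 1.84 to 53.1 ± 7.50 CPM) and Tbk1 (32.9 ± 0.821 to 43.1 ± 1.64 CPM). The call of Tbk1 was lost against Ctr without any one Ctr or IFN-γ library or EZH2i replicate 2 or 3 (edgeR adjusted p 0.0508 to 0.11), and in EZH2i-treated cells without any one EZH2i library or replicate 2 of both agents (0.0542 to 0.105). The 3 core genes of the IκB kinase complex were not called. Chuk averaged 51.5 CPM in Ctr and 57.2 CPM in IFN-γ, Ikbkb 57.5 and 70.7 CPM and Ikbkg 35.6 and 35.8 CPM.

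Of 24 tested adaptors and ubiquitin enzymes, 6 were called higher and 1 lower with IFN-γ versus Ctr, and 7 and 1 in the EZH2i-treated cells. Myd88, the adaptor of Toll-like and interleukin receptors, went from 2.44 ± 0.645 to 13.7 ± 2.05 CPM (log2 2.47, SE 0.23, edgeR adjusted p = 1.59e-05), and Rnf31, the catalytic part of the linear ubiquitin ligase, from 20.9 ± 4.46 to 63.4 ± 11.6 CPM (log2 1.60, SE 0.21, edgeR adjusted p = 3.10e-04). The 1 lower gene was Btrc, a part of the ligase that marks IκB. Of 12 tested receptors, 6 were called higher and 0 lower in both comparisons, among them Tnfrsf1a, the main TNF receptor, at 51.4 ± 2.30 CPM in Ctr and 162 ± 14.6 CPM in IFN-γ (log2 1.65, SE 0.13, edgeR adjusted p = 3.47e-06). The double-stranded RNA sensor Tlr3 went from 6.23 ± 2.11 to 44.1 ± 13.9 CPM (log2 2.81, SE 0.34, edgeR adjusted p = 1.75e-04).

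Of 12 ligands only 5 passed the filter, of which Tnfsf13b (0.417 ± 0.040 to 2.30 ± 0.623 CPM) and Il33 (34.7 ± 22.6 to 115 ± 32.1 CPM) were called higher in both IFN-γ comparisons. The call of Il33 was lost against Ctr without Ctr replicate 2 or 3 or IFN-γ replicate 1 or 2 (edgeR adjusted p 0.0606 to 0.11), and in EZH2i-treated cells without EZH2i replicate 2 or 3, IFN-γ replicate 2 or any one library of both agents (0.0513 to 0.147). Tnf itself had no count in 9 libraries (Ctr, EZH2i and IFN-γ) and at most 3 counts in a library of IFN-γ with EZH2i. Of 20 tested targets of NF-κB, 7 were called higher and 1 (Cd83) lower with IFN-γ versus Ctr, and 8 and 1 in the EZH2i-treated cells. Irf1, a transcription factor gene of the interferon response, rose from 12 ± 0.41 to 951 ± 116 CPM (log2 6.31, SE 0.16, edgeR adjusted p = 2.98e-10). The chemokine gene Cxcl10 went from 0.687 ± 0.0576 to 295 ± 177 CPM and the adhesion gene Icam1 from 0.874 ± 0.754 to 58.5 ± 1.77 CPM. The log2 fold change of Cxcl10 was 8.72, and 8.13 without IFN-γ replicate 3, and that of Icam1 was 6.02, and 6.74 without Ctr replicate 1. Median log2 fold changes with IFN-γ versus Ctr were -0.02 over the other subunits and inhibitors, 0.08 over the kinases, 0.21 over the adaptors and ubiquitin enzymes, 0.77 over the receptors, 0.24 over the ligands and 1.42 over the targets, beside 0.00 over all tested genes. Not a single gene of the 6 lists was called for EZH2i without or with IFN-γ, or for the interaction, by edgeR. These lists were drawn up with results of the data known, and their counts are a description. The counts and medians cover only genes past the filter, 24 of 28 adaptors and ubiquitin enzymes, 12 of 14 receptors and 20 of 28 targets. That filter keeps a gene that is high in a single group and drops one that is low in all groups. The medians therefore do not describe the lists as a whole.

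**Figure D5:**
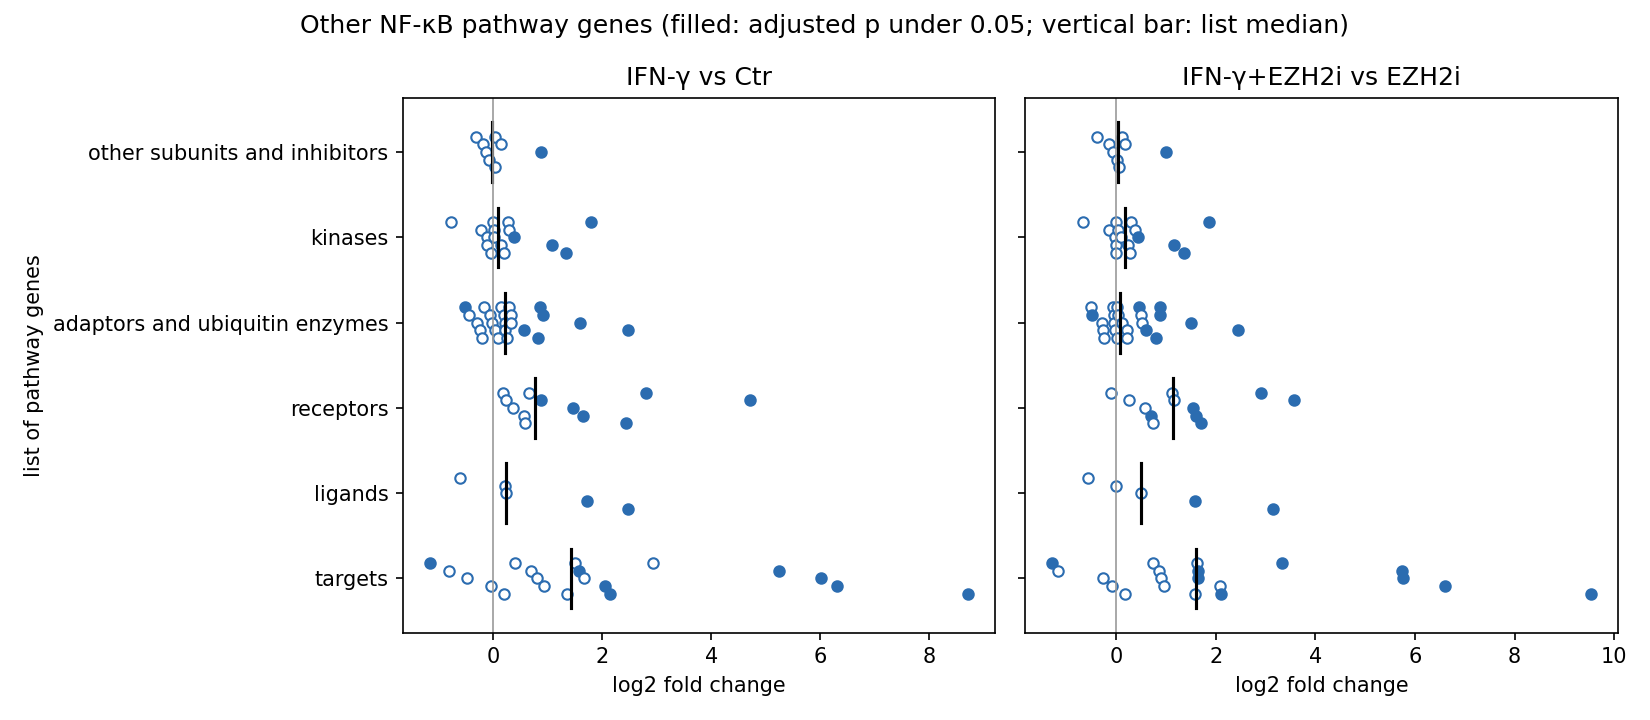
Log2 fold changes of the tested genes of 6 lists with IFN-γ versus Ctr and in EZH2i-treated cells, filled where the edgeR adjusted p was under 0.05, with a bar at the list median. The medians of targets and receptors lie to the right, and the other subunits and inhibitors lie around 0 apart from Nkrf. With IFN-γ versus Ctr, 12 of 20 targets and 6 of 12 receptors were not called, and some targets lie to the left (Cd83 at -1.16, Cxcl5 at -0.81). Only genes past the filter on low counts are drawn, and it keeps a gene that is high in a single group, so the medians do not describe whole lists.

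The genes whose profile over the 12 libraries was most like that of Tnfaip3, by the root mean square of the difference in centered log2 CPM, were Stat2 (0.24), Rnf19b (0.25) and Rsad2 (0.26), beside 2.06 for the size of the Tnfaip3 profile itself. For Bcl3 they were Ggt5 (0.59), Tubb3 (0.60) and Prdm1 (0.66), beside 2.69. For Birc3 they were Cacna1e (0.38), Pde5a (0.42) and Sntg2 (0.42), beside 1.12, and for Relb they were Dnmt3a (0.10), Ogg1 (0.11) and Mum1 (0.11), beside 0.30. These values are a description without a test, over libraries that share the 4 groups.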

How the data were processed

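Bulk RNA-seq (TruSeq Stranded Total RNA, NovaSeq) of 12 OPC libraries was analysed. The authors quantified transcripts with Salmon (0.8.2 in the submitters' processing notes) and deposited, without normalization, an estimated count for each. The deposited TPM divides these by effective length and sums to the same total in every library. The submitters' notes also name STAR, DESeq2 and mm10/GRCm38. Tables of the authors' DESeq2 comparisons (fold changes and p-values) were not used.

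Per gene (GENCODE on GRCm38, every transcript matched) the estimated counts were added up and rounded. In R 4.3.3, edgeR 4.0.16 was fitted once to 12 libraries with TMM factors, the group as the only term and the default filter on low counts (18995 genes). Contrasts were tested by quasi-likelihood, p-values were adjusted (Benjamini-Hochberg) over all tested genes, and genes were called at an adjusted p under 0.05. CPM is TMM-normalized. TPM was compared only within a group, since it is not adjusted for composition. The p-values measure the spread between litters of pooled pups. The fits were tried on simulated counts with changes of a single fixed size, which is no check of the smaller changes given here.

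The members and gene lists were chosen with earlier results of these data known. Named are the members, up to 4 called genes per list with the largest change and a mean of at least 1 CPM, not all of which are reported, some genes fixed by name (Rel, Nfkbib, Chuk, Ikbkb, Ikbkg and Tnf) and the 3 genes most like each called member. Btrc, Cd83 and the transcripts of Tnfaip3 were named after their values were seen.

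Also run were no filter, RLE factors, DESeq2 1.42.0, the replicate number as a block, only the 6 libraries compared, mitochondrial and rRNA genes left out (1.52 to 3.99% of counts), each library left out in turn and, added after seeing the data, replicate 1 of every group left out.

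The labels number the replicates 1 to 3 in each group. Deviations of same-numbered libraries from their group means correlated at 0.604, 0.493 and 0.642 for both agents against IFN-γ, and at 0.530, 0.496 and 0.621 for both agents against EZH2i, so the numbers were taken to pair these libraries. With Ctr such correlations were 0.49, 0.0854 and 0.544 for IFN-γ and 0.441, 0.0467 and 0.495 for EZH2i, in replicate order. The low values were those of replicate 2, whose Ctr library was the shallowest. No pairing with Ctr was assumed in the main fit, and the data do not settle whether there was one. The fit with the block held all 12 libraries, so it paired those of Ctr by number too.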

Additional observations from a re-analysis of the deposited data

How the results depend on the processing

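Tnfaip3, Bcl3 and Birc3 with IFN-γ versus Ctr, and Tnfaip3 and Bcl3 in EZH2i-treated cells, were called in each of 19 alternatives. The fitted log2 fold change of Bcl3 against Ctr, of no firm size, went from 7.15 to 8.16 without Ctr replicate 1 and to 6.53 without IFN-γ replicate 1. In IFN-γ with EZH2i versus EZH2i, the number of members called went from 4 to 2 with no filter on low counts and to 2 with only the 6 libraries compared (fewer samples), and was between 2 and 4 with 1 library left out. Relb lost its call without EZH2i replicate 1 (edgeR adjusted p = 0.0635) or 2 (0.162), IFN-γ replicate 2 (0.0501), or replicate 1 (0.0762), 2 (0.0527) or 3 (0.101) of IFN-γ with EZH2i. Birc3 lost its call on leaving out any single library (0.0529 to 0.165) other than Ctr replicates 1 and 3. Members called with IFN-γ versus Ctr were 3 with any library left out. The counts over all genes with 1 library left out were 1111 to 1710 for IFN-γ versus Ctr, 1078 to 1566 for IFN-γ with EZH2i versus EZH2i, 11 to 83 for EZH2i versus Ctr 10 to 65 for IFN-γ with EZH2i versus IFN-γ and 0 for the interaction.

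For the comparisons with Ctr, where equal numbers were not shown to pair the libraries, the fit with the replicate block gave 6 members called with IFN-γ, adding Nfkb1 (edgeR adjusted p = 0.0426), Relb (0.0481) and Nfkbia (0.0242), and 4032 genes in all, and 771 genes with EZH2i. As a hint from the data only, each IFN-γ library correlated best with the Ctr library of its own number, and EZH2i replicate 2 did not. For both agents the same fit, in which the Ctr libraries were blocked too, gave 3661 genes versus EZH2i and 748 versus IFN-γ. The block changed no other call of a member. EZH2i versus Ctr gave 77 genes, against 308 with DESeq2, 121 with no filter, 33 with 6 libraries and 0 without replicate 1 of every group (1317 at an unadjusted p under 0.05). IFN-γ with EZH2i versus IFN-γ gave 67 genes, against 264 with DESeq2, 7 with 6 libraries and 0 without replicate 1 (1343 unadjusted). The cause of these shifts was not tested.

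Small uncalled log2 differences changed sign. Without replicate 1 of every group these were Nfkb2 in EZH2i versus Ctr (0.10), Nfkb1 (0.057) and Bcl3 (-0.18) in IFN-γ with EZH2i versus IFN-γ, and Nfkb1 in the interaction (0.11). With the block Bcl3 in IFN-γ with EZH2i versus IFN-γ was -0.058, and with no filter Nfkbie in the interaction was -0.0011. Ranges with 1 library left out that crossed 0 were, for EZH2i versus Ctr, Nfkb1 -0.091 to 0.040, Nfkb2 -0.17 to 0.065, Relb -0.061 to 0.14, Nfkbia -0.011 to 0.22 and Nfkbie -0.20 to 0.011. For IFN-γ versus Ctr they were Rela -0.43 to 0.032 and Nfkbie -0.10 to 0.27, and versus EZH2i with both agents Rela -0.40 to 0.11 and Nfkbiz -0.016 to 0.064. For both agents versus IFN-γ they were Nfkb1 -0.16 to 0.076, Nfkb2 -0.21 to 0.057, Rela -0.56 to 0.034, Nfkbie -0.29 to 0.090 and Bcl3 -0.81 to 0.64, and for the interaction Nfkb1 -0.15 to 0.085, Nfkb2 -0.18 to 0.090, Rela -0.23 to 0.36 and Nfkbie -0.16 to 0.22. Depth limits Bcl3 in Ctr and EZH2i and Birc3 throughout, with at most 15 and 54 counts in a library.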
